A study of Mus musculus with 40 samples.

Results

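The genes described here are 42 members of the integrated stress response and of the amino acid supply it controls: the eIF2 kinases Eif2ak3 and Eif2ak4, 9 transcription factors and regulators around Atf4, 15 enzymes of amino acid and one-carbon synthesis, 10 amino acid transporters and 6 aminoacyl-tRNA synthetases. Members were matched by symbol or older alias, and each was read from the probe set of that gene alone with the highest mean over the platform's arrays. This gave 41 of the 42 members among 18195 genes on the arrays of sorted T cells, where Pycr1 was not matched, and 38 among 17098 genes on the arrays of the ligand experiment, where Mthfd2, Pycr1, Got1 and Slc1a4 were not matched.

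The study measured RNA on 40 Affymetrix arrays from C57Bl/6 mouse regulatory T cells (Treg) in 2 experiments. In the first, CD4+ CD45RBlow GFP+ Treg and CD4+ CD45RBhi GFP- conventional T cells (Tconv) were sorted from Foxp3-GFP mice and kept for 48 h in RPMI with serum. There were 3 arrays of Treg activated with anti-CD3/CD28 (activated Treg), 3 of untreated Treg (resting Treg) and 2 of untreated Tconv (resting Tconv); the source label of these arrays is bone marrow. In the second, CD4+ CD45RBlo Foxp3-YFP+ Treg from spleen and lymph node were given plate-bound anti-CD3 at 1 µg/mL and, in solution, anti-CD28 at 2 µg/mL and human IL-2 at 100 U/mL, together with immobilised control mouse IgG1 (IgG) or Sema4a-Ig (Sema), each at 10 µg/mL. All of these cells carry Foxp3-YFP-iCre, which expresses Cre where Foxp3 is expressed; the wild-type (WT) Treg have Foxp3-YFPiCre alone and the NRP KO Treg are Nrp fl/fl as well, which directs deletion of Nrp1 to Foxp3-expressing cells. There were 8 IgG and 8 Sema arrays for each genotype. Every cell of the second experiment was therefore activated, and its contrast is the ligand. Sema4a is a ligand of neuropilin-1, the product of Nrp1.

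As background, the integrated stress response starts when a kinase phosphorylates the translation factor eIF2: Eif2ak3 (PERK) senses unfolded protein in the endoplasmic reticulum and Eif2ak4 (GCN2) senses uncharged tRNA. Most translation then slows while that of Atf4 mRNA rises, and ATF4 protein switches on genes for making, importing and charging amino acids together with its partners and brakes, such as Ddit3, Trib3 and Ppp1r15a. In T cells the same supply genes are drawn on when antigen receptor and mTORC1 signals drive growth. ATF4 is controlled largely through translation, so the level of Atf4 mRNA is not a measure of the protein.

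ATF4 dimers bind a composite element, here searched as TGATGNAA on both strands over the RefSeq promoter table of GRCm38.p6, each promoter running from 250 bases before to 50 bases after a gene's start. The element was found in 1304 of 32851 promoters, or 3.97%. Of the 42 members, 35 matched the table with 42 promoters, and 10 of these promoters (23.8%) held it. They belong to Aars, Asns, Atf3, Chac1, Gars, Got1, Pycr1, Slc1a4, Slc7a11 and Trib3, one each. The members were listed as genes of the response that ATF4 drives, so a share above that of all promoters is not an independent finding. The stretches below surround the match in 4 members, a factor, an enzyme, a synthetase and a transporter whose ligand values are given below, with the 8 bases of the match in capitals; a match on the opposite strand reads as its reverse complement. Atf3 changed in the ligand experiment, while the other 3 were chosen for display after their values had been seen. A match is a description of these letters, not of a bound site.
Atf3, chr1:191183396-191183483, minus strand: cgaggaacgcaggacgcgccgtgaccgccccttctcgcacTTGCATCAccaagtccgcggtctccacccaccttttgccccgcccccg
Asns, chr6:7693210-7693272, minus strand: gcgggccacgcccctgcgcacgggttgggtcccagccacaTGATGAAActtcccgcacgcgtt
Gars, chr6:55037931-55038000, plus strand: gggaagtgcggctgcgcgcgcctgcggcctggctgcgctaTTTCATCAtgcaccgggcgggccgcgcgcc
Slc7a11, chr3:50443632-50443719, minus strand: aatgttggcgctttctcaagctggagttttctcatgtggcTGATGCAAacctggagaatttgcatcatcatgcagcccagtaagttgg
Slc7a11 held the element a second time, on the opposite strand, within the stretch shown.

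On the sorted arrays Foxp3 lay at log2 10.3 to 10.9 in Treg and 3.95 to 4.05 in Tconv, and all 8 Treg markers were higher in both Treg groups than in Tconv; the signal of Actb at the 3' end exceeded that at the 5' end by 2.31 to 6.17 (log2) on the Treg arrays and by 1.24 to 1.54 on the Tconv arrays, so 5' signal moved with the groups. On the ligand arrays the mean of each pair of 1 IgG and 1 Sema array had been made equal over all 16 pairs before deposit, so levels cannot be compared between WT and NRP KO, the loss of Nrp1 cannot be read, and only the Sema minus IgG difference of each pair carries information. The Sema array of WT pair 2 is titled WT but has a genotype label of Nrp fl/fl; it was kept with WT by its title, and results without it are given. Foxp3 itself read 3.27 to 3.82 on the ligand arrays, under the highest nonspecific control probe set (3.95), while the summed level of the 8 Treg markers was 13.2 to 13.6 on the log2 scale.

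In the sorted T cells the member called in all 3 comparisons was Trib3, a pseudokinase induced by ATF4 that in turn dampens ATF4 and AKT signalling. Its log2 signal was 10.17 and 10.43 in resting Tconv, 8.66, 9.34 and 9.05 in resting Treg and 7.04, 7.08 and 7.15 in activated Treg. The 3 groups did not overlap: Trib3 was highest in Tconv and lowest in activated Treg. It was 2.43-fold lower in resting Treg than in resting Tconv (log2 difference -1.28 ± 0.215 SE, limma adjusted p = 0.0117), 3.79-fold lower in activated than in resting Treg (-1.92 ± 0.192, limma adjusted p = 0.00769) and 9.23-fold lower in activated Treg than in resting Tconv (-3.21 ± 0.215, limma adjusted p = 9.34e-05). These comparisons share groups and are not independent of each other. Its second probe set gave -1.35, -2.28 and -3.62 in the same order. Among arrays with an Actb 3' minus 5' difference under 4, activated minus resting Treg was -2.04, and among those above it -1.60. Activated replicate 3 is the sole activated array under 4, and resting replicate 1 the sole resting array above it. Without either of the 2 Tconv arrays the first difference missed the threshold (adjusted p = 0.0929 and 0.143), and without activated replicate 1 the second did (adjusted p = 0.0607).

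**Figure D1:**
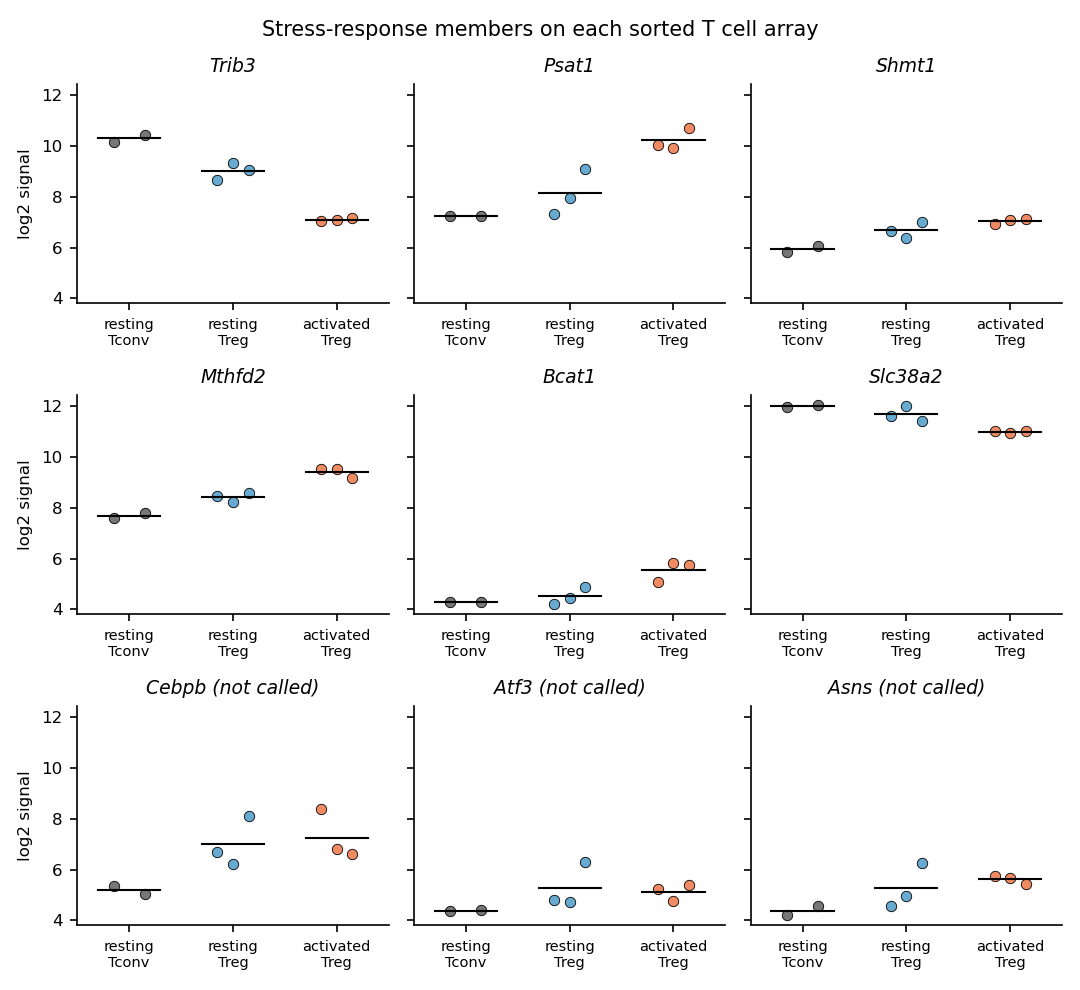
Log2 signal (vertical axis) of 9 members on each sorted T cell array, by group (horizontal axis: resting Tconv, 2 arrays; resting Treg, 3; activated Treg, 3); points are arrays and bars are group means. Trib3 falls from 10.17 and 10.43 in Tconv to 7.04, 7.08 and 7.15 in activated Treg without overlap, Psat1 is highest in activated Treg, and resting Treg replicate 3 is the highest point of its group for Psat1, Cebpb, Atf3 and Asns.

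Trib3 was the sole member called in resting Treg against resting Tconv: 0 of 41 members were higher, where 3.86% of all genes were (703 genes), and 1 was lower, where 1.65% were (300 genes). At an unadjusted limma p under 0.05 there were 5 members higher and 4 lower, of 41, beside 1903 genes higher and 1345 lower, of 18195. The median member difference was -0.02, beside 0.01 over all genes, with 20 members positive and 21 negative. Centring each array on its median, which shifts these differences by -0.10, gave 599 genes higher and 406 lower and the same counts of members. The other 4 of the 5 largest member differences were positive and did not pass. Cebpb, a transcription factor that pairs with ATF4, had the largest of all, 1.81 (95% interval 0.34 to 3.28, adjusted p = 0.174), and Atf3, Psat1 and Asns by 0.89 each (adjusted p = 0.361, 0.380 and 0.348). Cebpb read 5.36 and 5.03 in Tconv against 6.69, 6.22 and 8.11 in resting Treg, so the groups did not overlap but the Treg arrays were spread widely.

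Resting Treg replicate 3 held the highest resting value of several members. Atf3, a stress-induced factor downstream of ATF4, read 6.31 there and 4.80 and 4.73 on the other resting Treg arrays. Asns, asparagine synthetase, read 6.27 there against 4.58 and 4.97. The neutral amino acid transporter gene Slc1a4 read 6.75 there against 5.09 and 4.73 (6.01 and 4.92 in Tconv). The same array had the highest summed signal of 9 markers of dendritic cells and MHC class II expression, log2 11.58, where the other Treg arrays had 9.41 to 10.79 and Tconv 8.61 to 8.68. Of the other marker lists, 3 of 9 B cell markers were higher and 1 of 8 markers of CD8 and NK cells, Klrd1, was lower in resting Treg than in Tconv. In bulk samples a change in the mix of cells and a change in RNA per cell cannot be told apart, and the part of these markers in the members' values was not tested.

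Activated against resting Treg asks what receptor stimulation does within Treg. Here too Trib3 was the member called lower (1 of 41, where 0.22% of all genes were, 40 genes) and 0 members were called higher, where 0.522% of genes were (95 genes); centred arrays gave 87 genes higher and 59 lower. At an unadjusted limma p under 0.05, 5 members were higher, 4 of them synthesis enzymes, and 2 lower, of 41, beside 917 genes higher and 1178 lower, of 18195. The 4 largest positive differences were those of synthesis enzymes, Psat1, Bcat1, Mthfd2 and Got1, and none passed. Psat1, the phosphoserine aminotransferase of serine synthesis, read 10.04, 9.91 and 10.70 in activated Treg and 7.34, 7.97 and 9.09 in resting Treg, a difference of 2.08 ± 0.415 without overlap (adjusted p = 0.0746). It passed without resting replicate 3 (2.56, adjusted p = 0.0106) and with the Actb class as a block (2.40, adjusted p = 0.0147). The classes divide activated and resting arrays unevenly, so the block fit leans on few arrays. Mthfd2, the mitochondrial folate enzyme, differed by 0.98 (adjusted p = 0.0533), Bcat1, which transaminates branched-chain amino acids, by 1.04 (adjusted p = 0.122) and the aspartate aminotransferase gene Got1 by 0.77 (adjusted p = 0.666). Of the 14 synthesis enzymes measured 12 were positive with a median of 0.36, while the median over all 41 members was 0.04 and over all genes 0.00. Got1 and Mthfd2 also passed with the Actb class as a block (1.27 and 0.91, adjusted p = 0.0363 and 0.0455).

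Activated Treg and resting Tconv differ in cell type, CD45RB gate and stimulation together, so the parts of these cannot be told apart. Set against resting Tconv, activated Treg differed in 6 members. The 4 that rose (of 41, where 5.93% of all genes rose, 1079 genes) were all synthesis enzymes, and the 2 that fell (where 3.77% of genes fell, 686 genes) were Trib3 and the transporter gene Slc38a2. Centring shifted this comparison by -0.18 and gave 863 genes higher and 1131 lower; the same 4 members rose, and Ppp1r15a and Sars joined the 2 that fell. Psat1 was 7.86-fold higher than its Tconv values of 7.24 and 7.25 (2.97 ± 0.464, limma adjusted p = 0.00574). Mthfd2 read 9.52, 9.55 and 9.15 in activated Treg, 8.47, 8.21 and 8.597 in resting Treg and 7.59 and 7.79 in Tconv, 3 groups with no overlap. It was 3.28-fold higher in activated Treg than in Tconv (1.71 ± 0.196, limma adjusted p = 0.00123). Cebpb, with the third largest difference, did not pass (2.06 ± 0.641, limma adjusted p = 0.0904), at 8.37, 6.82 and 6.598 against 5.36 and 5.03. The 8.37 is from activated replicate 1, which had the highest summed signal of 16 myeloid markers, log2 13.39. The other sorted arrays had 12.61 to 12.93, with 12.89 on resting replicate 3, where Cebpb read 8.11. S100a8 ran from 4.10 to 11.29 over the activated arrays, and 1 of the 16 was called higher in activated Treg than in Tconv. The part of these markers in Cebpb was not tested. Bcat1 read 5.09, 5.84 and 5.75 against 4.29 and 4.30 (1.27 ± 0.277, adjusted p = 0.0245). Shmt1, the cytosolic serine hydroxymethyltransferase, read 6.92, 7.09 and 7.12 against 5.82 and 6.08 (1.09 ± 0.211, adjusted p = 0.0148).

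Its mitochondrial counterpart Shmt2 did not follow: 8.13, 8.51 and 9.22 in activated Treg against 9.21 and 9.47 in Tconv (-0.72, adjusted p = 0.233). Slc38a2, which encodes the glutamine and alanine importer SNAT2, was near the top of the scale in every group and 2.01-fold lower in activated Treg, at 11.01, 10.94 and 11.01, than in Tconv, at 11.96 and 12.03 (-1.005 ± 0.194, adjusted p = 0.0144). Resting Treg lay between at 11.63, 12.00 and 11.40 and overlapped Tconv. Other probe sets of the called members differed in the same direction except 1 of Bcat1 (-0.04) and 1 of Slc38a2 (0.47), and with the mean over all probe sets of a gene neither of these 2 calls held (adjusted p = 0.0951 and 0.343). With either Tconv array left out, Trib3 and Mthfd2 were the members called; Psat1 then had adjusted p = 0.0671 and 0.0587. Without activated replicate 2 Bcat1, Shmt1 and Slc38a2 missed the threshold (adjusted p = 0.0834, 0.0532 and 0.0526), and without activated replicate 3 Bcat1 did (adjusted p = 0.0504) while Shmt2 was called lower (-1.02, adjusted p = 0.0355). Among arrays with a low Actb 3' minus 5' difference, activated replicate 3 is the sole activated array, so calls are not given. Activated Treg minus Tconv was then -3.14 for Trib3, 3.46 for Psat1, 1.46 for Mthfd2 and 1.45 for Bcat1. For Shmt1 it was 1.17 and for Slc38a2 -0.98.

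**Figure D2:**
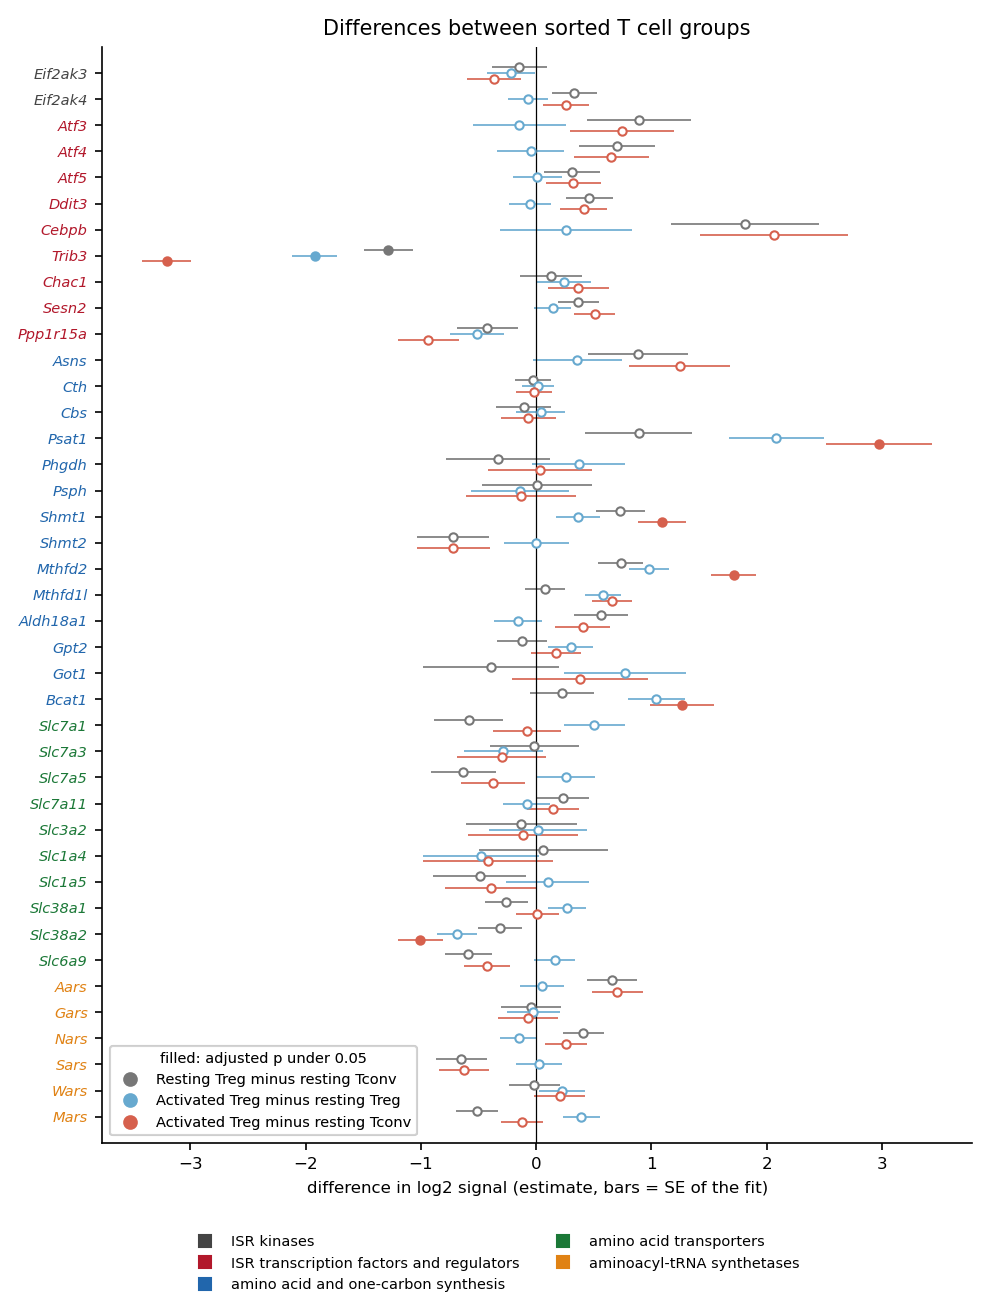
Difference in log2 signal (horizontal axis; bars are the SE of the fit) for the 41 measured members (vertical axis, coloured by role) in the 3 comparisons of sorted groups; filled points have an adjusted p under 0.05. Filled points lie at Trib3 (-1.28, -1.92 and -3.21) and, for activated Treg against Tconv, at Psat1, Shmt1, Mthfd2, Bcat1 and Slc38a2.

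None of the 2 kinases, Atf4 and the 6 synthetases was called in these 3 comparisons; of the synthetases 1 was higher and 1 lower in activated Treg against Tconv at an unadjusted limma p under 0.05. Atf4 read 12.11, 11.44 and 10.89 in activated Treg, 11.81, 11.45 and 11.31 in resting Treg and 10.84 and 10.81 in Tconv, so that all 6 Treg arrays lay above both Tconv arrays (0.65 and 0.70 for activated and resting Treg, adjusted p = 0.309 and 0.319). Another Atf4 probe set, with a mean of 9.98, gave the opposite direction, -0.86 for activated and -0.26 for resting Treg against Tconv, so these arrays settle no direction for Atf4 mRNA; that probe set is the one read for Atf4 on the ligand arrays. Ppp1r15a, the phosphatase subunit that ends the response, differed by -0.94 between activated Treg and Tconv (adjusted p = 0.0661). Of the 9 factors and regulators, 7 were positive in activated Treg against Tconv with a median of 0.41, and of the 10 transporters 8 were negative with a median of -0.34. The 6 synthetases ranged from -0.63 (Sars) to 0.71 (Aars) in that comparison. Cth, Chac1 and Slc7a11 stayed at or under log2 5 in every group mean.

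For the lists around the members, the shares called over all genes were 3.86% higher and 1.65% lower in resting Treg against Tconv. They were 5.93% and 3.77% in activated Treg against Tconv, and 0.522% and 0.22% in activated against resting Treg. No list was tested against these shares. Calls were found among genes that sense amino acids for mTORC1. Of 20 measured, 4 were higher and 0 lower in resting Treg than in Tconv: Rragd, a Rag GTPase, by 2.66, Castor2 by 0.99, Flcn by 0.99 and Lamtor5 by 0.94. In activated Treg against Tconv 3 were higher and 1 lower, Rragd by 1.75, Castor2 by 1.499 and Lamtor5 by 0.94 against Lamtor2 at -1.17. Among 16 other ATF4 targets Eif4ebp1, the translation repressor 4E-BP1, was higher in resting (1.17) and activated (1.43) Treg than in Tconv, and Cdkn1a (2.39) and Jdp2 (2.27) were higher in activated Treg, where Tsc22d3 was lower (-0.89). Tsc22d3 was also the 1 gene of that list called in activated against resting Treg (-0.94). Of 13 other eIF2 pathway genes the kinase gene Eif2ak2 was higher (1.92) and Ppp1r15b lower (-0.91) in activated Treg than in Tconv; of 14 other transporters Slc43a1 was higher in resting (0.81) and activated (1.23) Treg, and Slc36a4 was higher (1.76) and Slc36a1 lower (-1.02) in activated Treg; of 13 other cytosolic synthetases Hars was higher (0.89). None of 23 other amino acid and folate enzymes was called in the 3 comparisons by limma, with 8 at an unadjusted p under 0.05 in activated Treg against Tconv.

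The ligand experiment asks whether Sema4a-Ig changes activated Treg and whether the change needs Nrp1. In WT Treg most members were lower with Sema: 31 of 38 mean differences were negative, or 81.6%, where 53.9% of all genes were, and the median was -0.21, beside -0.01 over all genes. In all, 6 members fell (15.8%, where 2.88% of all genes did, 492 genes) and 0 rose, where 2.91% of genes did (498 genes). At an unadjusted limma p under 0.05, 19 members were lower and 1 higher, of 38, beside 2172 genes lower and 1429 higher, of 17098. The 6 came from 4 of the 5 roles: Atf3 among the factors, Cth, Bcat1 and Shmt2 among the enzymes, Slc7a5 among the transporters and Nars among the synthetases. Sema minus IgG was negative in all 8 WT pairs for 8 members (21.1%, where 4.36% of all genes were): Atf3, Bcat1, Nars, Phgdh, Sars, Shmt2, Slc7a1 and Slc7a5.

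Among the factors, Atf3 had pair differences from -1.498 to -0.28 with a median of -0.76, so every pair was lower with Sema; its mean was -0.78 ± 0.169 SE (n = 8 pairs, 1.72-fold lower, limma adjusted p = 0.0105). Atf4 differed by -0.17 and was lower in 7 of 8 pairs (adjusted p = 0.238), and Ppp1r15a by -0.23 (adjusted p = 0.0823). Ddit3, which encodes the stress factor CHOP, and Trib3 differed by 0.11 and 0.19 (adjusted p = 0.481 and 0.297), on the other side of 0 from most members. Trib3, at log2 4.77 with IgG, was near the low end of the scale on these arrays. The kinases Eif2ak3 and Eif2ak4 differed by 0.03 and -0.13.

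Among the enzymes, Cth, which makes cysteine from cystathionine, had the largest difference: -2.11 to 0.15 over the pairs with a median of -1.04, lower in 7 of 8, and a mean of -0.98 ± 0.186 (1.97-fold lower, adjusted p = 0.00439). Its signal was low, log2 4.27 with IgG and 3.29 with Sema, the latter under the highest nonspecific control. Bcat1 ranged from -1.36 to -0.08 with a median of -0.59 and was lower in every pair (mean -0.71 ± 0.179, 1.64-fold, adjusted p = 0.0238). Shmt2 ranged from -1.24 to -0.09 with a median of -0.41, again lower in every pair (mean -0.48 ± 0.109, 1.39-fold, adjusted p = 0.0145). Asns ranged from -1.26 to 0.21 and was lower in 7 pairs, but its mean of -0.50 ± 0.169 did not pass (adjusted p = 0.0809). Psat1, the enzyme with the largest difference between activated Treg and Tconv, differed by -0.29 with Sema (limma adjusted p = 0.120). Of 12 enzymes 10 were negative, with a median of -0.22.

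Slc7a5, the light chain of the leucine importer LAT1, ranged from -1.04 to -0.04 with a median of -0.35 (mean -0.40 ± 0.104, 1.32-fold lower, adjusted p = 0.0271). Its partner chain Slc3a2 differed by -0.20 and was lower in 7 of 8 pairs (adjusted p = 0.116), and the arginine importer gene Slc7a1 by -0.23, lower in all 8 (adjusted p = 0.103). Of 9 transporters 8 were negative; the other, the cystine importer gene Slc7a11 (0.28, adjusted p = 0.0919), read 3.16 with IgG, under the highest nonspecific control. Nars, asparaginyl-tRNA synthetase, ranged from -0.81 to -0.03 with a median of -0.35 (mean -0.34 ± 0.0871, 1.26-fold lower, adjusted p = 0.0271). The methionyl synthetase gene Mars differed by -0.35 (adjusted p = 0.0719) and the glycyl synthetase gene Gars by -0.25 (adjusted p = 0.276), and 5 of the 6 member synthetases were negative, all but Wars (0.10).

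**Figure D3:**
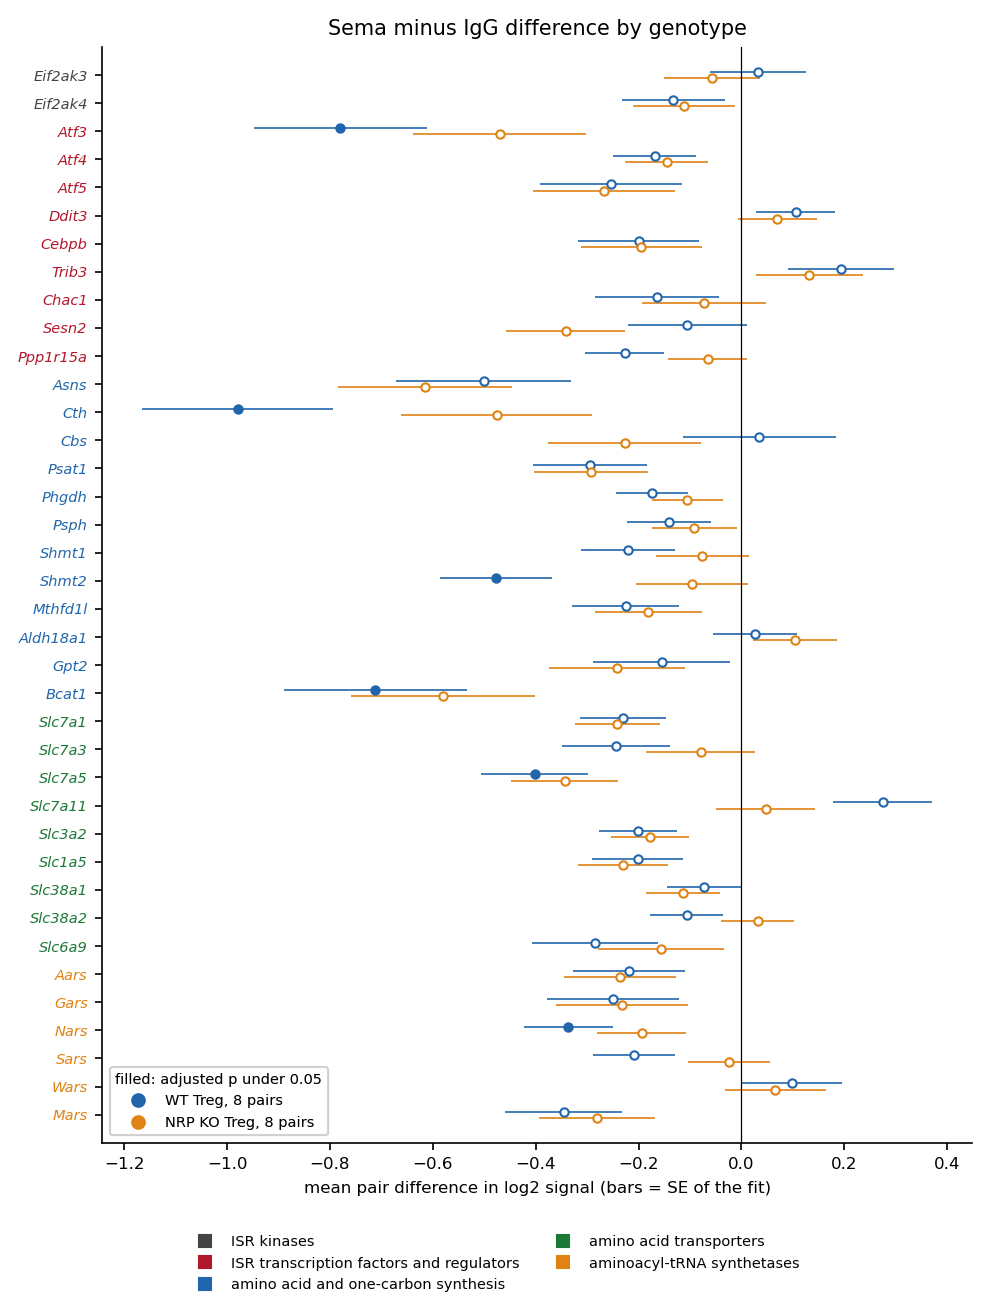
Mean Sema minus IgG difference in log2 signal (horizontal axis; bars are the SE of the fit, 8 pairs per genotype) for the 38 measured members (vertical axis, coloured by role) in WT and NRP KO Treg; filled points have an adjusted p under 0.05. Most points of both genotypes lie left of 0, 31 in WT and 32 in NRP KO, and the 6 filled points are all WT.

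Markers of other cell types moved with this comparison. Of 16 myeloid markers measured, 12 were positive in WT and 3 rose with Sema, Lyz2 (0.81), Ctss (0.37) and Tyrobp (0.39), and the summed log2 level of the list was 10.30 to 10.63 on the WT IgG arrays and 10.67 to 11.01 on the WT Sema arrays. A sum is set mostly by its highest genes. Ctss led the myeloid sum, with means of 9.95 on WT IgG and 10.32 on WT Sema arrays. It read 12.72 in sorted Tconv, so it is not particular to myeloid cells here. The summed level of 4 erythroid markers also did not overlap, 7.04 to 7.59 with IgG and 7.69 to 8.28 with Sema. Hba-a1 led that sum (means 7.17 and 7.63), and the 1 erythroid marker called, Klf1, was lower (-0.30). The B cell marker Cd79b (0.35) and the Treg markers Nrp1 (0.37) and Ikzf2 (0.29) were higher. With the mean myeloid difference of each pair as a covariate 0 of 38 members were called in WT, as were 0 genes lower and 33 higher over all genes; the estimates stayed negative, at -0.85 for Cth, -0.65 for Atf3, -0.63 for Bcat1, -0.42 for Shmt2, -0.29 for Slc7a5 and -0.24 for Nars. The part of the other markers in the members' differences was not tested. Without WT replicate 2, whose labels disagree, 4 members fell and Bcat1 and Nars did not pass (adjusted p = 0.0598 and 0.0603). Without WT replicate 3, the pair with the lowest member median, Cth and Shmt2 were the 2 members called. Leaving out replicate 1 or 7 gave 3, with Bcat1, Slc7a5 and Nars lost. Leaving out replicate 6 gave 7. Slc7a5 was lost there (limma adjusted p = 0.0568), Asns was called lower and Slc7a11 higher (0.34, limma adjusted p = 0.0448). Calls over all genes dropped as well. Genes called lower numbered 492 with every pair, 303 without replicate 2, 60 without 3, 189 without 1, 164 without 7 and 471 without 6. Genes called higher numbered 498, 374, 198, 349, 249 and 441 in the same order. Restricting the fit to the 7988 genes with a group mean over log2 5 gave 11 of 29 members lower (37.9%, where 12.7% of those genes were): Cth was no longer tested, and Asns, Mars, Ppp1r15a, Sars, Slc3a2 and Slc7a1 were added.

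**Figure D4:**
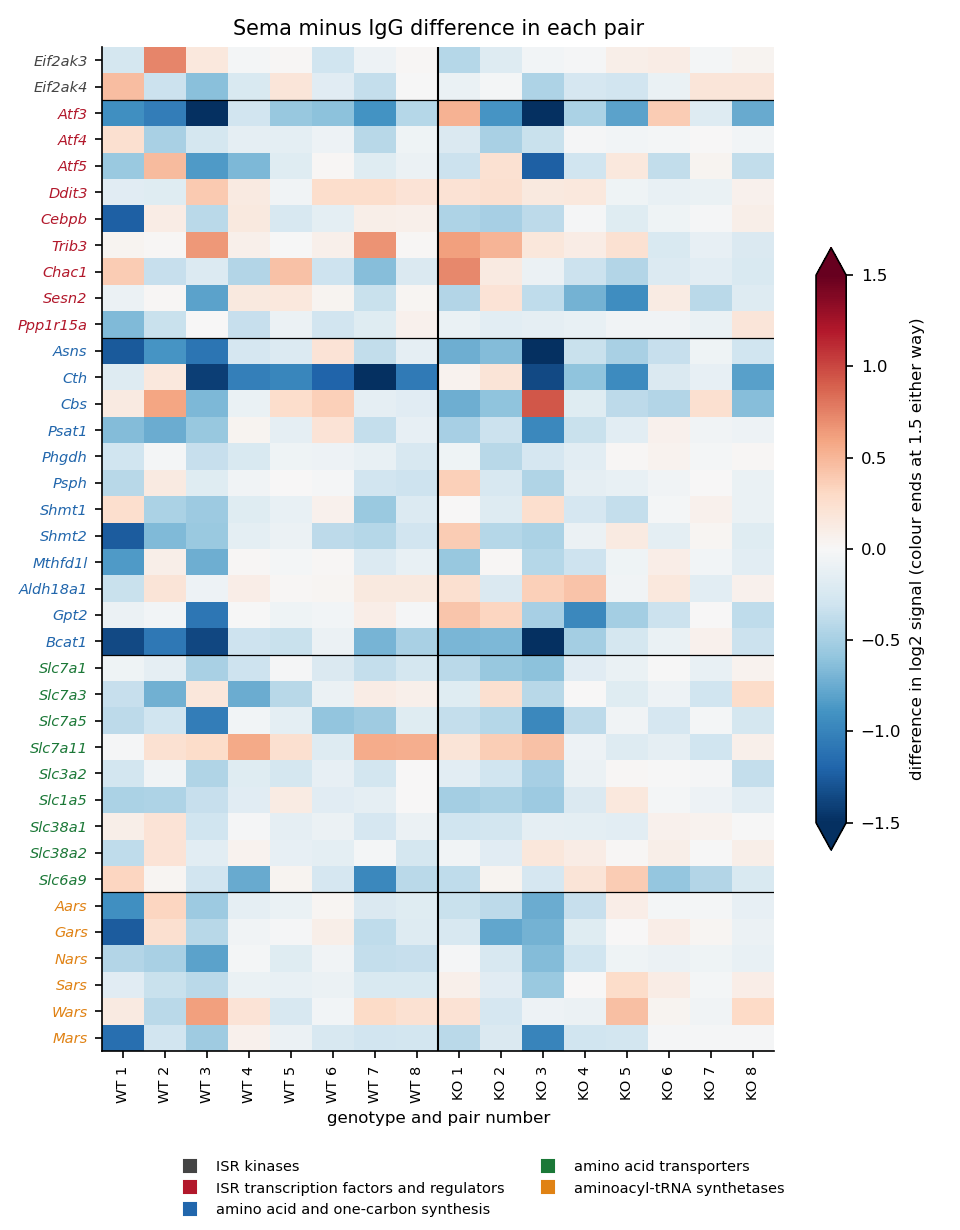
Sema minus IgG difference in log2 signal for each of the 38 measured members (rows, grouped by role) in each of the 8 WT and 8 NRP KO pairs (columns); blue is lower with Sema, red higher, and the colour ends at 1.5 either way. Atf3, Bcat1, Asns and Cth are the darkest blue rows, and WT pairs 1 and 3 and KO pair 3 the darkest blue columns.

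In NRP KO Treg the members leaned the same way with no call. The mean difference was negative for 32 of 38 members, or 84.2%, where 54.98% of all genes were negative. The median was -0.17, beside -0.02 over all genes. Of the members 0 of 38 were called, as were 0 of 17098 genes in either direction (0%). The 5 largest were Asns at -0.61 ± 0.169 (pairs from -2.0003 to -0.06, median -0.42), Bcat1 at -0.58 ± 0.179, Cth at -0.48 ± 0.186, Atf3 at -0.47 ± 0.169 and Slc7a5 at -0.34 ± 0.104, with limma adjusted p between 0.378 and 0.424. Asns, Mars, Nars and Slc7a5 were lower in all 8 KO pairs (4 members, 10.5%, where 1.66% of all genes were). At an unadjusted limma p under 0.05, 13 members were lower and 0 higher, beside 1100 genes lower and 687 higher over all genes. Of the 16 myeloid markers 11 were negative with Sema in NRP KO, but Lyz2 (0.25), Ctss (0.16) and Tyrobp (0.36) were positive without passing, and the mean summed level was 10.61 with IgG and 10.70 with Sema.

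By pair, the member median was negative in all 16 pairs, from -0.44 to -0.03, while the median over all genes stayed between -0.05 and 0.01. WT pair 3 (-0.438) and KO pair 3 (-0.442) were lowest, and their title codes follow each other. In KO pair 3 Asns differed by -2.0003 and Bcat1 by -2.14; without that pair the median over members of the KO mean differences was -0.13 in place of -0.17.

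**Figure D5:**
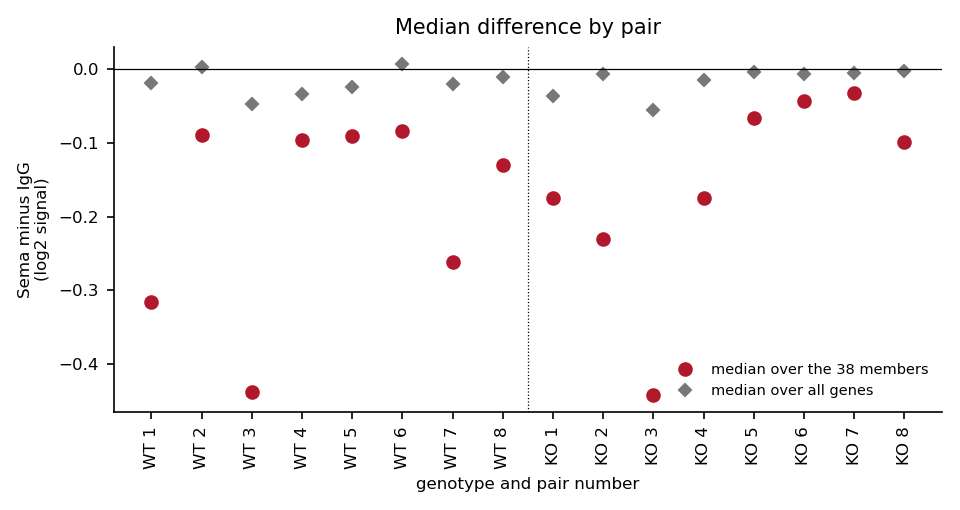
Median Sema minus IgG difference in log2 signal (vertical axis) in each pair (horizontal axis), over the 38 members (circles) and over all genes (diamonds). Every circle lies below 0, from -0.44 to -0.03, and WT pair 3 and KO pair 3 are lowest.

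The difference between genotypes was tested directly and passed for 0 members and 0 of 17098 genes (0%); the smallest adjusted p of a member was 0.822, for Shmt2, the 1 member with an unadjusted p under 0.05. An effect called in WT and not in NRP KO is therefore not shown to differ between them. For the called members, NRP KO minus WT was 0.50 for Cth (95% interval -0.04 to 1.05), 0.38 for Shmt2 (0.06 to 0.70), 0.31 for Atf3 (-0.19 to 0.80), 0.14 for Nars (-0.11 to 0.40), 0.13 for Bcat1 (-0.39 to 0.66) and 0.06 for Slc7a5 (-0.25 to 0.36). Cbs and Sesn2, which completed the 5 largest, had -0.26 (-0.70 to 0.18) and -0.24 (-0.58 to 0.10). These intervals are not adjusted for the number of genes. Of the 38 members 30 were negative in both genotypes and 5 positive in both (Aldh18a1, Ddit3, Slc7a11, Trib3 and Wars), and 27 had a mean closer to 0 in NRP KO than in WT. The same counts were not taken over all genes. Of all 17098 genes, fewer had an unadjusted limma p under 0.05 in NRP KO (1787) than in WT (3601). The members are therefore not shown to stand apart in having weaker differences in NRP KO. Across members the WT and KO means had a Pearson r of 0.792, and across all genes 0.511; genes are not independent replicates, and the genotypes share the platform and the levelling of pair means before deposit but no sample. Shmt2 and Bcat1 serve as examples of this comparison and are not the ends of its range. Shmt2 in KO pairs ran from -0.47 to 0.38 with a median of -0.12, away from its WT median of -0.41. Bcat1 in KO pairs ran from -2.14 to 0.07 with a median of -0.42, near its WT median of -0.59.

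Among other genes of the pathway, 3 of the 6 called in WT were synthetases. Over all genes 2.88% fell and 2.91% rose in WT, and no list was tested against these shares. Of 11 other cytosolic aminoacyl-tRNA synthetases measured 10 were negative in WT, with a median of -0.27, and Yars (-0.45 ± 0.0977), Farsa (-0.38 ± 0.0963) and Kars (-0.28 ± 0.0827) fell (limma adjusted p = 0.0113, 0.0245 and 0.0487). In NRP KO 10 of the 11 were negative with a median of -0.14 and 0 were called. The tRNA exporter gene Xpot fell in WT (-0.35, adjusted p = 0.0271), and Tsc22d3, which fell in activated Treg, rose with Sema (0.62, adjusted p = 0.00548); they were the 2 of 16 other ATF4 targets called. Slc7a6 was the 1 of 13 other transporters called (-0.30, adjusted p = 0.0472). Of 12 other eIF2 pathway genes, 22 other amino acid and folate enzymes and 17 amino acid sensing genes 0 were called in WT by limma (6, 7 and 5 at an unadjusted p under 0.05), and the sensing genes had a positive median (0.07).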

How the data were processed

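The members and gene lists were chosen with earlier results of these data known. The authors deposited log2 signals per probe set, summarised by RMA and handled in Partek 6.6 per the submitters' processing notes; their order and the genome build were not given in the sources used here. RMA signals compress large ratios. Of 45101 probe sets on the sorted arrays and 45141 on the ligand arrays, 34958 and 28898 name 1 gene in the platform annotation, 932 and 551 several and 9211 and 15692 none. Titles gave the groups. Ligand arrays were paired by neighbouring title codes, and the deposited pair means are equal within 6.0e-05, which bears out the pairing.

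Differences were fitted with limma 3.58.1 in R 4.3.3 (lmFit, eBayes): the 8 sorted arrays in 1 model of 3 group means, and the 16 pair differences in 1 model of 2 genotype means. P-values were adjusted by Benjamini-Hochberg over all genes of the platform, and a gene was called under 0.05; "fell" and "rose" are used for called genes. The fit was tested on simulated data. Labels do not say that arrays came from separate mice, so a p-value reflects spread among arrays, which may be technical, and the number of arrays limits precision. Named genes were all called members and the 5 largest differences of each comparison. Other members given with values, such as Slc1a4, Atf4, Ppp1r15a and Mars, fall outside this rule and were picked with the values in view. Alternatives were array centring, array weights, trended and robust variance, other probe set choices, a signal filter, covariates for Actb and myeloid markers, fits without pairing, and each array or pair left out. No RefSeq protein table was used here.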

Additional observations from a re-analysis of the deposited data

Results flagged for a closer look

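Over the 76 groups of 8 pair differences (38 members in 2 genotypes), 11 held a pair set apart from the others by Dixon's criterion for 8 values at the 95% level. If the groups were independent, about 1 group in 20 would be set apart by chance. The members of a genotype were read on the same pairs and are not independent, so no excess over chance can be read from this count. KO pair 3 accounted for 6 of the 11, each lower with Sema than in the other pairs: Bcat1 (-2.14), Asns (-2.0003), Atf5 (-1.23), Mars (-0.996), Slc7a5 (-0.97) and Nars (-0.65). The medians of the other 7 KO pairs were -0.33 for Bcat1 and -0.34 for Asns. WT pair 1 stood apart for Gars (-1.25) and Cebpb (-1.23; the other 7 WT pairs had a median of 0.08), WT pair 3 for Gpt2 (-1.08) and WT pair 2, whose labels disagree, for Eif2ak3 (0.73). KO pair 8 stood apart for Ppp1r15a (0.18), above the other KO pairs.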

How the results depend on the processing

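The alternatives were compared for the called members and the 5 largest differences of each comparison. Of these estimates 477 kept their direction and their side of the threshold, 42 lost and 19 gained the call, and 1 changed sign. That was Sesn2 in NRP KO minus WT, 0.047 with the mean over all probe sets of the gene. Members called in resting Treg against Tconv numbered 1, beside 703 genes higher and 300 lower over all genes. The Actb class as a block gave 2 members, beside 1064 genes higher and 569 lower. Array weights gave 11, beside 1786 higher and 1221 lower. With any 1 resting Treg array left out 1 member was called, beside 585 to 642 genes higher and 205 to 275 lower. Fits without a Tconv array leave 1 array in that group and are not counted here. In activated against resting Treg there was 1 member, beside 95 genes higher and 40 lower. The Actb block gave 4 members, beside 217 genes higher and 101 lower. Array weights gave 6, beside 379 and 577, and trended and robust variance 2, beside 130 and 44. With an array left out 0 to 2 members were called, beside 11 to 126 genes higher and 1 to 42 lower. Arrays with low Actb difference alone leave 1 activated array, so no count is given. In activated Treg against Tconv there were 6, beside 1079 genes higher and 686 lower. Array weights gave 19, beside 2832 genes higher and 3057 lower. Fitting only these groups gave 10, beside 1308 and 864. Without activated replicate 1, 4 members were higher and 2 lower, beside 844 and 437 genes. Without replicate 2 these were 2 and 1, beside 763 and 364, and without replicate 3 they were 3 and 3, beside 1122 and 1143. In WT, Sema minus IgG gave 6 members, beside 498 genes higher and 492 lower. Trended and robust variance gave 3, beside 376 and 232, and the mean over all probe sets 11, beside 513 and 638. The filter over log2 5 gave 11 of 29 members, beside 716 and 1018 of 7988 genes. The myeloid covariate gave 0, beside 33 and 0. With no replicate block, that is without pairing, there were 22, beside 1750 and 2668. With a pair left out there were 2 to 7, beside 198 to 526 genes higher and 60 to 543 lower. In NRP KO, Sema minus IgG gave 0, and 13 without pairing, beside 676 genes higher and 1058 lower. Pair means were made equal before deposit, so the spread of unpaired arrays is not that of independent samples. The genotype difference gave 0 members in every fit run, including, chosen after seeing the data, 6 sets of WT and KO pairs with neighbouring title codes as a block. Deviations within these sets correlated from -0.03 to 0.23 over all genes and from -0.21 to 0.40 over the members. Signal over background limits Cth, Slc7a3 and Slc7a11.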
